A study of Homo sapiens with 6 samples.

Results

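The genes described here are IFIH1, DDX58, EIF2AK2, STAT2, IRF9, TRIM21 and TRIM38, 7 of the 1099 genes in the authors' deposited table. They were taken by gene name for their roles in sensing viral RNA and in interferon signalling, after earlier results of these data were known, and all 7 names were found in the table. The number of genes that the authors tested, 11289, was recovered here from the deposited p-values and adjusted p-values. The table holds 1099 of them, taken here as those with the smallest p-values for extract against vehicle. Every gene in it was thus chosen on that contrast. The difference between the groups in these 7 genes is therefore given as a description, and nothing is supported with it.

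Poly(A) RNA had been sequenced from 6 libraries of a wild-type human line labelled A549, a lung adenocarcinoma line. The cells had been kept for 24 h with DMSO as vehicle (3 libraries) or with F/B extract (3 libraries), which the series title names as an extract of Flos Sophorae Immaturus and broccoli seed. The dose was not given in the sources used here, nor whether replicates came from separate cultures, so errors and p-values cover the scatter among these 6 libraries alone, and that scatter may be technical. In a bulk sample, more RNA of a gene per cell and more cells that express it cannot be told apart.

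The label A549 was not borne out by the library names and the level of MTAP. The library names begin with AGS, which is also the name of a gastric adenocarcinoma line, and MTAP, a gene that A549 lacks through a known deletion, stood at 48.9 to 60.5 TPM (transcript abundance per length, scaled to a fixed total per library). Of 12 lung epithelial markers 1 was in the table (LAMP3, which is also induced by interferon), of 18 gastrointestinal markers 4 were (VIL1, CDH17, TFF1 and REG4), and of 14 leukocyte markers 0 were. The table was chosen on the contrast and holds 9.74% of all tested genes, so these counts do not tell the cell line. The 4 gastrointestinal markers were called lower with extract, in the same contrast as the 7 genes, with log2 fold changes of -0.42 for VIL1, -0.43 for CDH17, -0.78 for REG4 and -0.83 for TFF1. Their summed level was 327 to 341 TPM in vehicle and 224 to 256 TPM in extract libraries. All 4 were negative on the other 4 library scales, on 3 of which the call of REG4 was lost. MTAP at -0.19 and COL1A1, a fibroblast marker, at -0.33 were also called lower, calls lost on all 4 of those scales, and LAMP3 at 0.35 was called higher. The part of these markers in the results for the 7 genes was not tested. Genes that the table leaves out could not be looked at, and may have been tested with a larger p-value or not tested at all. Estimated counts over the listed genes summed to between 3084337 and 4640114 per library, which is part of each library and not its depth. Of all listed genes, the extract libraries were called higher in 319 and lower in 579, so that 64.5% of calls were lower. On DESeq2 size factors computed from the listed genes alone, 18.2% of calls were lower. That scale raised the median log2 fold change of all listed genes by 0.17, TMM by 0.15, plain sums by 0.14 and the scale implied by TPM by 0.09. Calls with vehicle replicate 2, with vehicle replicate 3 or with extract replicate 2 left out came to 50, 79 and 69 higher and 126, 224 and 179 lower.

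Cells detect viral RNA in the cytoplasm with helicases such as RIG-I and MDA5, which signal to the kinases that switch on interferon genes. Secreted interferon then acts through its receptors and the JAK kinases on STAT factors, and STAT2 joins IRF9 in ISGF3, the complex that binds interferon-stimulated response elements (ISREs) in promoters. The sensors, STAT2 and IRF9 are themselves targets of ISGF3, and TRIM ubiquitin ligases tune the pathway at several steps.

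The promoters of the 7 genes were read for the letters that ISGF3 and other interferon regulatory factors (IRFs) are known to bind. RefSeq promoter windows (GRCh38.p14, 250 bases before to 50 after the gene's start) were found for all 7, with DDX58 under its newer symbol RIGI. The searches covered both strands and used the ISRE core (GAAA, any 2 bases, GAAA) and, chosen after the sequences were seen, the shorter IRF core AANNGAAA, which lies within every ISRE core match. The windows below show 1 stretch for each gene with a match, 5′ to 3′ on the gene's strand, with the bases covered by matches to either core, or in EIF2AK2 to the stricter ISRE form given below, in capitals, so that the spacing and strand of the cores can be compared.
IFIH1, chr2:162318681-162318724, minus strand: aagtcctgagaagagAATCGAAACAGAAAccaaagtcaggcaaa
DDX58, chr9:32526376-32526413, minus strand: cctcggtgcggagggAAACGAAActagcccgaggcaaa
EIF2AK2, chr2:37156960-37157002, minus strand: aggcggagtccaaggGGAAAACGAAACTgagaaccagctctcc
IRF9, chr14:24161215-24161252, plus strand: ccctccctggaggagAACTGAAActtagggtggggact
TRIM21, chr11:4393670-4393697, minus strand: tgcttctgagcgGAAACTGAAAGTGAAA
TRIM38, chr6:25962759-25962796, plus strand: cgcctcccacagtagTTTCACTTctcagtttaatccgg

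The ISRE core was present in 3 of the 7 windows (IFIH1, EIF2AK2 and TRIM21), and in 3.65% of 27305 genes' windows, taking the first window of each gene. The stricter form (GGAAA, any 2 bases, GAAACT), present in 0.139% of all windows, was matched in EIF2AK2 alone among the 7. The shorter core was present in 6 of the 7 and in 23.2% of all windows, so a match to it is common. In EIF2AK2 the ISRE core spans the RefSeq start, from position -6 to 4, and in TRIM21 both copies lie after it, from 18 to 33. IFIH1 holds one copy just before the RefSeq start, from -21 to -12, and an overlapping pair on the other strand, from -159 to -144. The 3 short cores of DDX58 lie between -202 and -129. STAT2 had no match to any of these in its window, which says only that the letters are absent from these 300 bases. IRF9 also matched the gamma-activated-site letters TTCNNNGAA from -63 to -55, a core found in 7.88% of windows. The RefSeq start can differ from the GENCODE start used for the gene positions below. In GENCODE, IRF9 starts at 24161053, so its matches (24161202 to 24161210 and 24161230 to 24161237) lie inside the gene. The EIF2AK2 core also lies inside its gene, which starts at 37157065. For DDX58 the GENCODE start, 32526324, lies before the RefSeq one. The 7 genes were picked by name for their roles in this pathway, so their share of matches is no result about the contrast. These matches are descriptions of sequence, and no binding was measured.

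**Figure D1:**
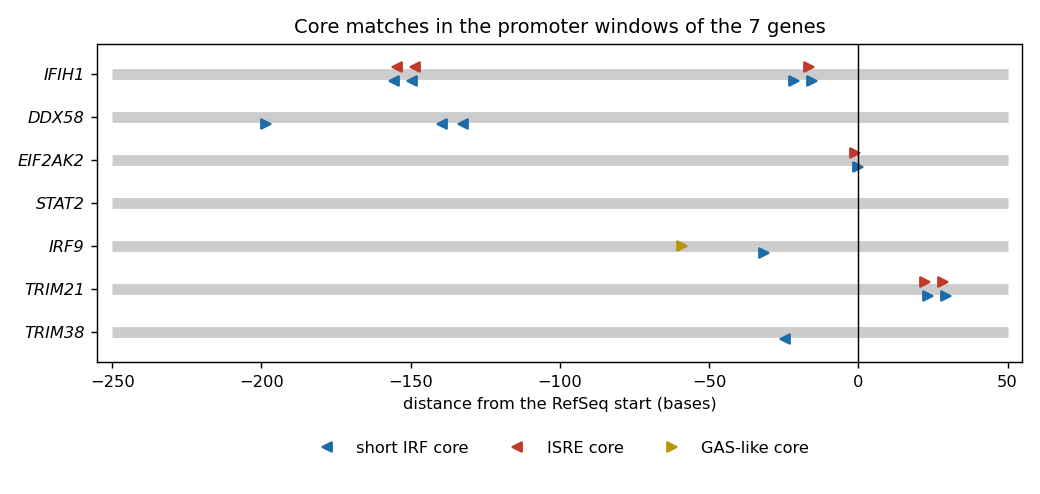
Positions of core matches in the promoter windows of the 7 genes, in bases from the RefSeq start (vertical line); arrowheads point along the strand on which the core reads, blue for the short IRF core, red for the ISRE core and yellow for the GAS-like core. Red marks appear in IFIH1, EIF2AK2 and TRIM21, and STAT2 has no mark.

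The RNA helicase sensors had the smallest spread of the 7 genes among vehicle libraries, though not among extract libraries, where that of IRF9 was smallest. IFIH1 (ENSG00000115267, chromosome 2, 162267079 to 162318703, minus strand, GENCODE 29 on GRCh38) encodes MDA5, which senses long double-stranded RNA. Its normalised counts (estimated counts divided by the library's size factor) were 791, 777 and 752 in vehicle replicates 1 to 3 and 1069, 1053 and 1106 in extract replicates 1 to 3. The groups did not overlap, and each lay within a narrow band. The means were 773 ± 20.2 and 1076 ± 27.1 (SD over 3 libraries each), and the log2 fold change was 0.48 (SE 0.05), or 1.39-fold.

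DDX58 (ENSG00000107201, chromosome 9, 32455705 to 32526324, minus strand) encodes RIG-I, which senses short RNA with a triphosphate end. It stood at 1231, 1262 and 1210 in the vehicle libraries and at 1564, 1642 and 1694 in the extract libraries. Every extract library was above every vehicle library, and the vehicle libraries were closer together than the extract ones. The means were 1234 ± 26.3 and 1633 ± 65.6 (SD over 3 libraries each), and the log2 fold change was 0.40 (SE 0.05). The ratio of IFIH1 to DDX58 normalised counts, in which the library scale cancels, was 0.643, 0.616 and 0.621 with vehicle and 0.684, 0.641 and 0.653 with extract, and the groups overlapped.

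EIF2AK2 (ENSG00000055332, chromosome 2, 37099210 to 37157065, minus strand) encodes PKR, a kinase that double-stranded RNA activates to phosphorylate the initiation factor eIF2. Its normalised counts were 2431, 2130 and 2158 with vehicle and 2544, 2672 and 3009 with extract. The highest vehicle library, replicate 1, and the lowest extract library, replicate 1, were close to each other. The means were 2240 ± 166 and 2742 ± 240 (SD over 3 libraries each), and the log2 fold change was 0.29 (SE 0.07), or 1.23-fold.

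The log2 fold changes of the ISGF3 genes were of different size, a difference that was not tested. STAT2 (ENSG00000170581, chromosome 12, 56341597 to 56360155, minus strand), the STAT that is particular to type I and type III interferon signalling, was at 898, 724 and 718 normalised counts with vehicle and at 1037, 1053 and 1143 with extract. Vehicle replicate 1 stood above the other two vehicle libraries and below every extract library. The means were 780 ± 102 and 1078 ± 57.1 (SD over 3 libraries each), and the log2 fold change was 0.47 (SE 0.09).

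IRF9 (ENSG00000213928, chromosome 14, 24161053 to 24166565, plus strand), the DNA-binding subunit of ISGF3, was at 1413, 1318 and 1240 normalised counts with vehicle and at 1548, 1523 and 1502 with extract. The extract libraries lay close together, and vehicle replicate 1 came nearest to them. The means were 1324 ± 86.4 and 1525 ± 23.0 (SD over 3 libraries each), and the log2 fold change was 0.20 (SE 0.06), or 1.15-fold, the smallest of the 7. Another protein-coding gene in the annotation, AL136295.5, overlaps all 5513 bases of IRF9 on the same strand, so the split of reads between them is uncertain.

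The ratio of STAT2 to IRF9 within a library was 0.636, 0.550 and 0.579 with vehicle and 0.670, 0.691 and 0.761 with extract, with no overlap. The library scale cancels in this ratio. The gap between the groups, from 0.636 to 0.670, was smaller than the SD within a group (0.0437 with vehicle and 0.0475 with extract), and the difference was not tested.

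The TRIM ligases had the lowest counts. TRIM21 (ENSG00000132109, chromosome 11, 4384897 to 4393696, minus strand), a ubiquitin ligase that binds antibody inside cells and also acts on factors of the sensing pathway, was at 354, 386 and 346 normalised counts with vehicle and at 427, 501 and 446 with extract. TRIM38 (ENSG00000112343, chromosome 6, 25962802 to 25991226, plus strand), a ligase known to modify sensors and their adaptors, was at 372, 388 and 328 with vehicle and at 420, 507 and 487 with extract. In both genes replicate 2 was the highest library of its group, and in neither did the groups overlap. Log2 fold changes were 0.34 (SE 0.09) for TRIM21 and 0.38 (SE 0.10) for TRIM38. An antisense gene, U91328.2, overlaps 7415 bases of TRIM38 on the opposite strand, and whether the counting used strand is not given in the sources used here, so their reads cannot be told apart.

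**Figure D2:**
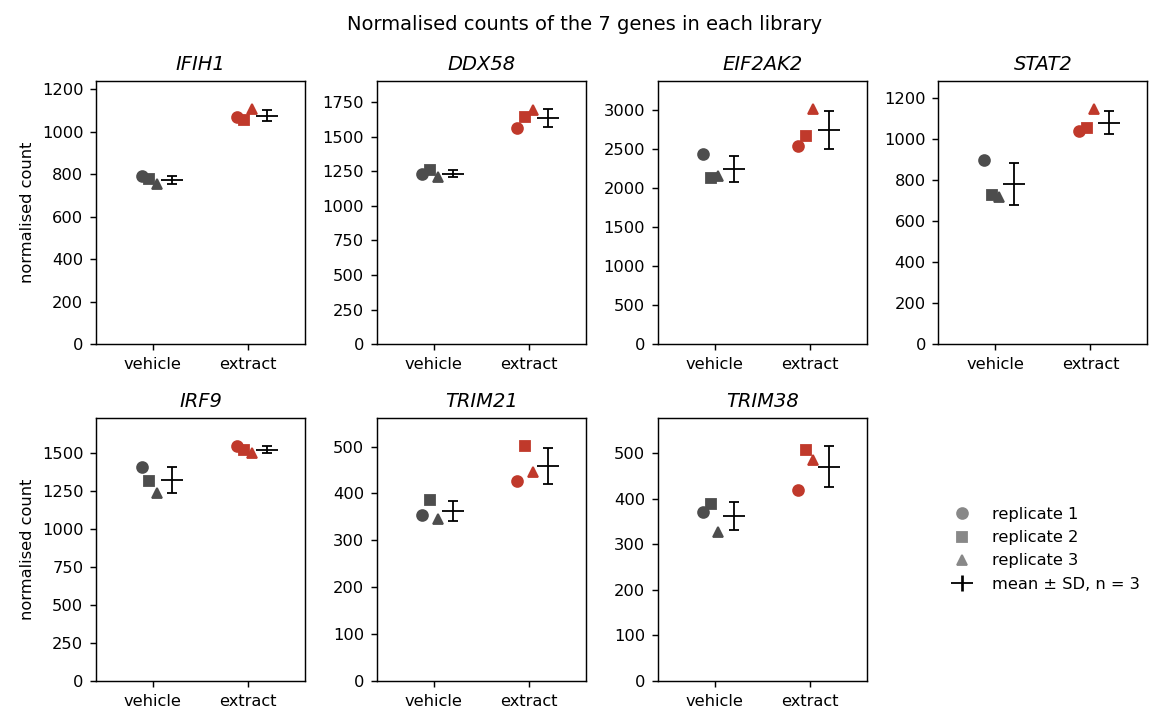
Normalised counts of each gene in the 6 libraries, vehicle in grey and extract in red, with the marker shape giving the replicate number and the black bar the mean ± SD (n = 3). All 7 genes have every extract library above every vehicle library; IFIH1 and DDX58 have the widest gap relative to their spread, and EIF2AK2, IRF9, TRIM21 and TRIM38 the narrowest.

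By the deposited p-values the 7 genes ranked from 65 (IFIH1) to 1022 (IRF9) among the 11289 tested. The authors' deposited column for significance read no for all 7 genes, by a rule that was not examined here. The authors' adjusted p-values were 1.27e-07 for IFIH1, 4.11e-07 for DDX58, 8.49e-05 for STAT2, 0.00329 for EIF2AK2, 0.0248 for TRIM38, 0.0393 for TRIM21 and 0.0469 for IRF9. These are the values on which the genes entered the table, whose largest adjusted p was 0.0549. By edgeR's quasi-likelihood test over the whole table, 6 of the 7 were called higher (adjusted p under 0.05) against 29.0% of all listed genes, with IRF9 not called, and all 7 had groups without overlap against 34.7% in that direction. Nothing is read from these counts, since the contrast chose the genes. The median log2 fold change of the 7 was 0.38, against -0.22 over all 1099 listed genes and 0.29 over the 387 that were higher. In TPM the groups of all 7 were also apart, as in 32.2% of listed genes in that direction.

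How many of the 7 were called rested on single libraries. Without vehicle replicate 2 or without vehicle replicate 3, 2 were called (4.55% and 7.19% of listed genes called higher), and without extract replicate 2 or without extract replicate 3, 3 were called (6.28% and 23.0%). Without vehicle replicate 1, 5 were called (22.3%), and without extract replicate 1, 6 (26.1%). All 7 were called with TMM (35.0%), DESeq2 size factors (35.2%), plain sums (35.1%), the scale implied by TPM (33.8%), DESeq2's Wald test (33.8%) and limma-voom (28.8%), 6 with no filter (29.0%) and 3 with a replicate block (7.64%). IFIH1 and DDX58 were called in each of the 14 other settings, STAT2 in 12, EIF2AK2 in 9, TRIM21 and TRIM38 in 8 and IRF9 in 7. The sign of the change was the same for all 7 genes in these 14 settings, in which log2 fold changes ran from 0.46 to 0.65 for IFIH1, from 0.38 to 0.58 for DDX58 and from 0.16 to 0.38 for IRF9. The 4 other library scales raise every log2 fold change, so a kept sign adds no support.

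**Figure D3:**
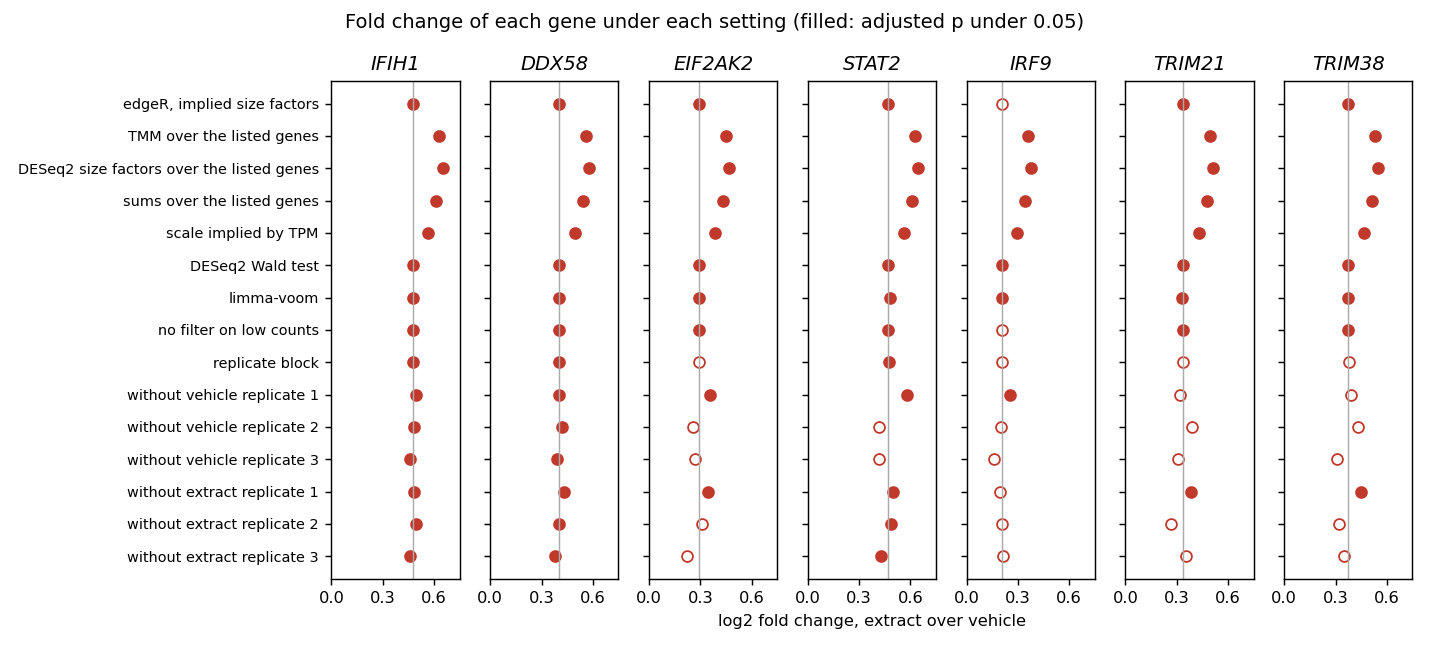
Log2 fold change (extract over vehicle) of each gene, in 1 panel each, under edgeR with the size factors implied by the deposited fold changes (top row, grey line) and under 14 other settings; filled points have an adjusted p under 0.05. IFIH1 and DDX58 are filled in every row, whereas IRF9 is open in the top row and filled with the other scales.

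Levels between genes can be compared per length, here as TPM. In vehicle libraries IRF9 was the highest at 78.9 ± 4.56 TPM, followed by EIF2AK2 at 44.3 ± 2.56, IFIH1 at 22.8 ± 1.65, DDX58 at 22.5 ± 0.295, STAT2 at 17.2 ± 2.19, TRIM21 at 17.2 ± 0.853 and TRIM38 at 3.12 ± 0.244 (SD, n = 3 each). The libraries of IFIH1 and DDX58 overlapped, as did those of STAT2 and TRIM21, and the other neighbours in the order were apart. With extract the order was the same, with IRF9 at 95.1 ± 3.70, EIF2AK2 at 55.3 ± 5.68, IFIH1 at 32.2 ± 2.54, DDX58 at 31.6 ± 2.75, STAT2 at 23.8 ± 2.13, TRIM21 at 22.8 ± 2.17 and TRIM38 at 4.26 ± 0.538 TPM, and the same pairs overlapped.

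**Figure D4:**
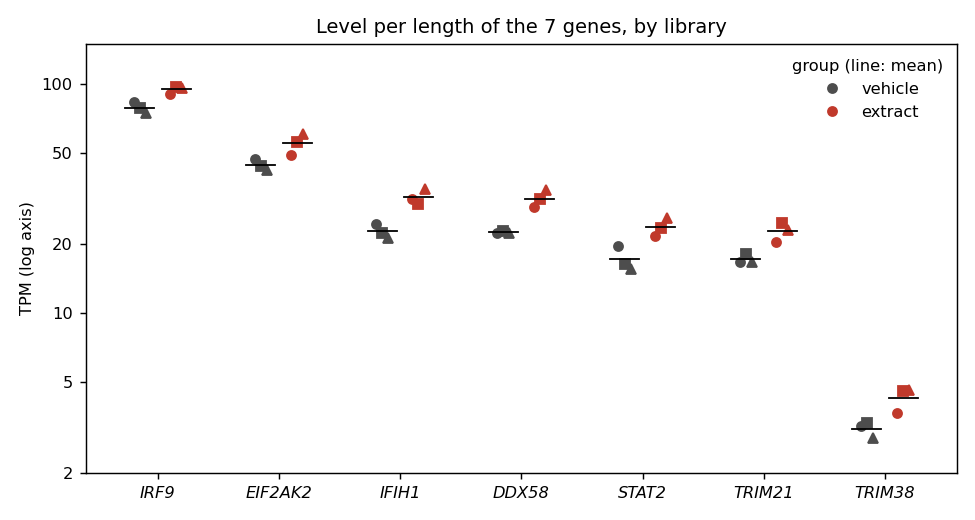
TPM of the 7 genes in each library on a log axis, ordered by the vehicle mean, with vehicle in grey, extract in red, circles, squares and triangles for replicates 1 to 3, and black lines for group means. IRF9 is the highest and TRIM38 the lowest in both groups.

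The order rests on which length is used. The deposited length of EIF2AK2 is 9931 bases, close to its longest annotated transcript of 10042, whereas the ratio of its counts to its TPM implied about 5102 bases in vehicle and 5329 in extract libraries, on average 0.525 of the deposited length. For the other 6 genes this share ran from 0.973 (IRF9) to 1.26 (TRIM38), where the median over the table is set to 1. With counts per kilobase of the deposited length, DDX58 took the second place in both groups. EIF2AK2 came to the third place in vehicle libraries, where 2 of the 7 genes kept their place, and below IFIH1 in extract libraries, where 5 of the 7 kept theirs.

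Spread within a group differed among them. It enters the p-values on which the table was chosen, so the values below come after that choice. The SD of log2 normalised counts in vehicle libraries ran from 0.031 (DDX58) and 0.038 (IFIH1) to 0.182 (STAT2), with a median of 0.0940, against 0.0587 over all listed genes. In extract libraries it ran from 0.022 (IRF9) to 0.143 (TRIM38), with a median of 0.0754, against 0.0746 over all listed genes. Vehicle replicate 3 was below its group mean in all 7 genes. Extract replicate 1 was below its group mean in 6 of the 7, IRF9 being the exception.

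By root mean square distance over the 6 libraries, on log2 (normalised count + 1) centred on each gene's vehicle mean, the closest pair among the 7 was IFIH1 and DDX58 (0.061), followed by TRIM21 and TRIM38 (0.068), and the farthest was STAT2 and IRF9 (0.206). The nearest other listed genes with a mean of at least 100 normalised counts included SLC24A1 for IFIH1, SH3BP5 and CREG1 for DDX58, SYNJ2BP and RCBTB1 for EIF2AK2, and EPSTI1 and GASK1A for STAT2. For IRF9 they were SEPHS2 and KHNYN, for TRIM21 DNMBP and EPG5, and for TRIM38 CHTF8 and SAMD9. These distances ran from 0.028 (SYNJ2BP) to 0.066 (GASK1A). They are the smallest over many listed genes, whereas the pairs among the 7 are few, so they cannot be compared with those pairs. Centred on vehicle, all these distances also depend on the contrast that chose the genes.

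Around these 7 genes, the pathway was read step by step for the genes that the table lists. Of all tested genes 9.74% were listed, so a short list without a listed gene is no result about that step. Genes of these lists may also not have been tested. No gene was listed of 9 interferon ligands, 6 interferon receptors and 16 adaptors and kinases of the sensing step, among them MAVS and TBK1. Of 14 sensors of RNA or DNA 8 were listed, 6 called higher and 1 lower, against 29.0% and 52.7% of all listed genes. Beyond the 3 described above these were ZC3HAV1 at 0.37 (SE 0.08), which binds CpG-rich viral RNA, the helicase DDX60 at 0.35 (SE 0.09), and the RNA-editing enzyme ADAR at 0.15 (SE 0.04), with IFI16, a DNA sensor, at 0.36 (SE 0.10) not called. The call of ADAR was lost whichever library was left out, and those of ZC3HAV1 and DDX60 were lost with some left out. IFI16 was called on the 4 other scales. LRRFIP1 at -0.20 (SE 0.05) was the one called lower, a call lost on the 4 other scales.

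Among the JAK kinases and STAT factors, STAT2 was called higher, as was STAT6, which acts in interleukin-4 signalling, at 0.23 (SE 0.06). The kinases JAK2 at 0.48 (SE 0.13) and JAK1 at 0.17 (SE 0.05) were not called. Of 9 interferon regulatory factors and their binding partners 3 were listed, with IRF2, which competes with activating IRFs at ISREs, at 0.37 (SE 0.09) and its corepressor IRF2BP2 at 0.32 (SE 0.05) called. With single libraries left out, the call of IRF2 was kept only without extract replicate 1, whereas that of IRF2BP2 was always kept. Of 17 negative regulators only USP18, which removes ISG15 and blocks receptor signalling, was listed, at 0.42 (SE 0.08) and called. Of 15 TRIM and related ligases TRIM21 and TRIM38 were the only ones listed.

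The listed eIF2 and eIF2B subunits, on whose step PKR acts, had negative values, as did 712 of the 1099 listed genes. The median of all listed genes was -0.22, and 52.7% of them were called lower. Of 16 eIF2 kinases, eIF2 and eIF2B subunits and linked factors 4 were listed. EIF2AK2 was called higher, EIF2S1, the eIF2 subunit that PKR phosphorylates, at -0.34 (SE 0.04) and EIF2B5, a subunit of the exchange factor of eIF2, at -0.26 (SE 0.05) were called lower, and EIF2B2 at -0.31 (SE 0.08) was not called. EIF2S1 had 5647 ± 47.5 normalised counts with vehicle and 4464 ± 155 with extract (SD, n = 3 each). All 3 had negative values on every library scale. The call of EIF2S1 was lost on the scale of DESeq2 size factors, and that of EIF2B5 on all 4 other scales.

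Of 42 antiviral effectors 21 were listed and 19 called higher, with a median of 0.36 and values from 0.24 (SP100) to 0.82 (OAS2). OAS2, which makes the oligoadenylates that activate an antiviral RNase, stood at 593, 562 and 492 normalised counts with vehicle and at 1026, 928 and 957 with extract, a larger fold than any of the 7 genes described here. Over all these pathway lists, 43 of 152 genes were listed, 33 were called higher and 3 lower, against 29.0% and 52.7% of all listed genes. Leaving out vehicle replicate 2 gave 11 higher, vehicle replicate 3 12 and extract replicate 2 12, with 1 lower in each. The lists were made with earlier results of these data known, and the table was chosen on the contrast, so these counts are descriptions.

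**Figure D5:**
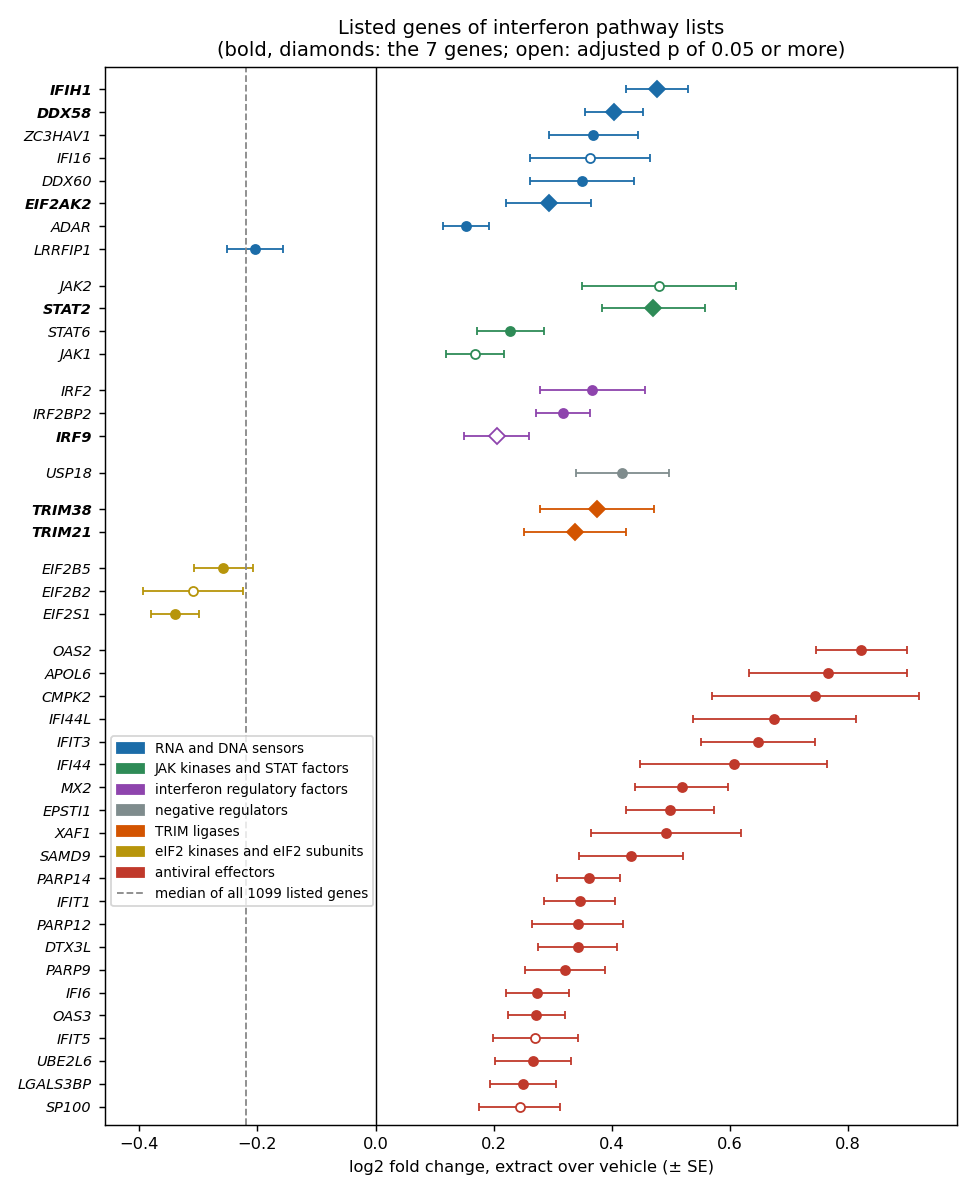
Log2 fold change (extract over vehicle, ± SE) of pathway genes in the table, grouped by list in colour, with the 7 genes as bold names and diamonds, open points for an adjusted p of 0.05 or more, and a dashed line at the median of all 1099 listed genes (-0.22). Sensors, STAT factors and effectors lie right of 0 except LRRFIP1, and the eIF2 and eIF2B subunits lie left.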

How the data were processed

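Poly(A) RNA of 6 libraries (3 per group) was read from the authors' deposited table. It holds, per gene and library, estimated counts, which the authors did not normalise and which were rounded here, and TPM as the authors scaled it, beside each group's mean TPM and a gene length. The authors' fold change, its log2 and the p-value and adjusted p-value of their test were deposited as vehicle over extract, and the sign was turned here. The submitters' processing notes name GRCh38 p13. The sources used here name no aligner, counter or annotation release. Size factors were those implied by the deposited fold changes. Genes were tested with edgeR 4.0.16 (quasi-likelihood, R 4.3.3), with Benjamini-Hochberg adjustment over the 11289 tested genes, and calls need an adjusted p under 0.05. The fit was also run on simulated counts in which most genes were unchanged and all had the same dispersion. The deposited table was chosen on the contrast, so that run does not vouch for the calls given here. DESeq2 1.42.0, limma 3.58.1 (voom), other scales, no filter, a replicate block and each library left out were alternatives. The looser promoter core and the ratio of mean TPM were added after seeing the data. The members and lists were chosen with earlier results of these data known. The text names the 7 genes, listed genes of the pathway and marker lists, and the 2 nearest genes of each; some of these are not reported here.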

Additional observations from a re-analysis of the deposited data

How the results depend on the processing

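The median log2 fold change of the 7 genes, 0.38, was 0.53 with TMM, 0.55 with DESeq2 size factors, 0.51 with plain sums and 0.47 with the scale implied by TPM, each over the listed genes. It was 0.45 as a log2 ratio of mean TPM, chosen after seeing the data. The 3 pathway genes called lower were 1 with TMM, 0 with DESeq2 size factors, 1 with plain sums and 1 with the TPM scale. Leaving out each library in turn gave 2 to 6 of the 7 genes called, 11 to 33 pathway genes called higher and 1 to 4 called lower. Correlations of same-numbered libraries' deviations across genes were -0.23, -0.01 and -0.03, and no library correlated best with its own number. Deviations from a mean of 3 libraries are tied to each other. These values therefore cannot tell whether replicates were handled in pairs. With the replicate block 3 of the 7 genes, 13 pathway genes higher and 1 lower were called, and 84 listed genes higher and 217 lower. The place in the vehicle order was the same for 2 of 7 genes per kilobase of deposited length. The stricter promoter core matched 1 of the 7 and the looser one 6, in place of 3. Of the 62 genes checked singly (the 7, pathway, marker and nearest genes), 0 changed sign in the 14 settings. Other listed genes were not checked for this. The causes of these differences were not tested. The table holds part of each library, so its full depth is unknown.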

Other observations

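Among the 21 listed antiviral effectors, 18 had a RefSeq promoter window and 13 of these held the ISRE core (GAAA, any 2 bases, GAAA), or 72.2%, among them IFIT1, IFIT3, IFI6 and IFI44, whose windows also held the stricter form (GGAAA, any 2 bases, GAAACT). Over all listed genes with a window, the core was in 26 of 312 that were higher (8.33%) and in 22 of 566 that were lower (3.89%). The 26 include these 13 effectors and 3 of the 7 genes described here (IFIH1, EIF2AK2 and TRIM21). The larger share among higher genes is therefore no result about higher genes outside the pathway lists. The effector list was chosen with earlier results known, and these shares are descriptions.

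In the deposited gene annotation, 25 listed genes carried the term for defence against virus, 20 of them called higher and 2 lower against 29.0% and 52.7% of all listed genes. Of 4 listed genes in the RIG-I-like receptor pathway, IFIH1 and DDX58 were called higher, and NFKBIB, an inhibitor of NF-kappaB, and CXCL8, a neutrophil chemokine, were called lower.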
